A study of Homo sapiens with 4 samples.

Results

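Genes of autophagy and the lysosome were followed in HeyA8-MDR cells given an inhibitor of miR-204-5p. HeyA8-MDR is a multidrug-resistant human ovarian carcinoma line, kept here in medium with 15% serum, 300 ng/ml paclitaxel and gentamicin. The 34 genes are a list of symbols drawn up with earlier results of these data known, and 33 of them had a named feature among the 21448 features of the array. NEU1, a lysosomal sialidase, had none, and only its promoter window is used below. They comprised 3 cargo receptors, 20 genes of the core machinery, 2 transcription factors and 8 measured lysosomal genes.

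Expression was measured on Clariom S arrays (Affymetrix), which give 1 log2 expression value per feature, with 2 control arrays and 2 arrays labelled miR204. The control group received a control microRNA inhibitor and the other group an inhibitor of miR-204-5p, an antisense oligonucleotide that binds the mature microRNA. Because the note on treatment mentions that inhibitor for each of the 4 arrays, titles lacking miR204 were read, with the design text, as the controls. Both groups were the same drug-selected line under paclitaxel, and the dose and duration of inhibitor treatment are not given in the sources used here. Nothing in the labels says that the 2 arrays of a group came from separate cultures, so p-values reflect only array-to-array spread, which may be technical.

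Autophagy encloses cytoplasm in a double membrane, the autophagosome, which then fuses with the lysosome, where acid hydrolases digest its content. A kinase complex around ULK1 starts the process, a lipid kinase complex around Beclin 1 marks the forming membrane, and a pair of ubiquitin-like conjugation systems attach proteins of the ATG8 family to it. Cargo receptors such as SQSTM1 bind ubiquitinated cargo and ATG8 proteins at once and are themselves digested. The transcription factors TFEB and TFE3 drive many lysosomal and autophagy genes through a promoter sequence called the CLEAR element. In drug-treated carcinoma cells the pathway is best known as a route of survival under stress. Its activity is set largely by phosphorylation and by turnover of proteins, which messenger RNA levels do not measure.

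The microRNA that the inhibitor binds and the microRNA that shares its seed are shown because the seed, bases 2 to 8 and in capitals here, is what pairs with messenger RNAs. Both were read from RefSeq sequences on GRCh38.p14, and those tables hold no other mature microRNA with this seed. TRPM3 hosts MIR204 and TRPM1 hosts MIR211.

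hsa-miR-204-5p (chr9:70810031-70810052, - strand): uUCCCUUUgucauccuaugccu

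hsa-miR-211-5p (chr15:31065095-31065116, - strand): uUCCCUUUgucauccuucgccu

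Short stretches of promoter are shown for 7 of the genes, 100 bases directly upstream of the annotated start, from RefSeq on GRCh38.p14. They comprise the 4 genes with the clearest higher values in the inhibitor arrays, SQSTM1, GABARAPL1, WIPI1 and ATG14. The other 3 are lysosomal genes whose stretch holds TCACGTGA. Capitals mark CACGTG, the E-box at the centre of the CLEAR element, its longer form TCACGTGA, and TGACGTCA, the core of the cyclic AMP response element. SQSTM1 has 3 annotated windows, and the 3′-most start is shown.

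SQSTM1 (chr5:179820805-179820904, + strand): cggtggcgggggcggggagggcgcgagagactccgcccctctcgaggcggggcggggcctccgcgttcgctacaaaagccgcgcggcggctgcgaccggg

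GABARAPL1 (chr12:10212777-10212876, + strand): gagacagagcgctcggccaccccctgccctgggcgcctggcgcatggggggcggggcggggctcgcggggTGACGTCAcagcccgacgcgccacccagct

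WIPI1 (chr17:68457497-68457596, - strand): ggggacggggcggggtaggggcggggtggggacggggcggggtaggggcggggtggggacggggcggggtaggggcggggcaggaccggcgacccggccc

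ATG14 (chr14:55411831-55411930, - strand): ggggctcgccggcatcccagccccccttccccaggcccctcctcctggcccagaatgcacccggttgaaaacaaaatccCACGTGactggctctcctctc

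LAMP1 (chr13:113297139-113297238, + strand): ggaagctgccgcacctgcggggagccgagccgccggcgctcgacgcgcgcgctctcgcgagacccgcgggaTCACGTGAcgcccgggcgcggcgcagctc

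MCOLN1 (chr19:7522524-7522623, + strand): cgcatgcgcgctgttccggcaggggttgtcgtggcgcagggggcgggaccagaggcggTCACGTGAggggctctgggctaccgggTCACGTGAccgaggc

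ATP6V0D1 (chr16:67481158-67481257, - strand): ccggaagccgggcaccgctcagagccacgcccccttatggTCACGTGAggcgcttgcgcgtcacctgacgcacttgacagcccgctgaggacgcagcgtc

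In the whole series, array medians ran from 5.59 to 5.68 log2 units, and Pearson correlations over features were 0.995 for the control pair, 0.986 for the inhibitor pair and 0.984 to 0.989 across groups. The standard deviation over features was smaller in the inhibitor arrays (2.08 and 2.13) than in the controls (2.20 and 2.21), and the median difference over all features was -0.07 log2 units. KRT8 and KRT18, keratins of epithelial cells, had values of 10.74 or more in every array and PAX8, a transcription factor of Müllerian epithelium, of 8.31 or more. Of the 9 carcinoma epithelial markers looked at, 8 were lower in the inhibitor arrays (median -0.20), against 12689 of 21448 features. At an unadjusted p under 0.05, 3 (33.3%) were lower, against 12.8% of all features: WT1 (-0.555), KRT7 (-0.40) and MUC16 (-0.385). The mean level of the 9 was 7.12 and 7.29 in the controls, then 6.997 and 6.972, and their part in the differences described here was not tested. EPCAM, an epithelial adhesion protein that carcinomas often carry, was between 2.93 and 3.87. The pan-leukocyte marker PTPRC, between 2.77 and 3.03, was the dimmest of 7 macrophage and leukocyte markers. The brightest of them, CSF1R, was between 5.46 and 5.97. The brightest of 5 measured fibroblast markers, COL1A2, averaged 7.89 in the controls and 7.795 in the inhibitor arrays. The dimmest, LUM, was between 2.30 and 2.44. Of the 5, 4 were lower in the inhibitor arrays, against 12689 of 21448 features. PDGFRA alone (-0.585) was lower at an unadjusted p under 0.05 (20% of the 5, against 12.8% of all features). The endothelial marker CDH5 was at 8.13 and 8.06 in the controls, then 7.01 and 7.03 (-1.075). Of the 5 endothelial markers, 3 were higher and 2 lower in the inhibitor arrays. Cell identity was not tested. ABCB1, the efflux pump of multidrug resistance, was at 7.68 and 7.77 in the control arrays and at 7.67 and 7.55 in the inhibitor arrays. Detection above background was not analysed here, so dim and undetected features look alike.

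The question was how transcripts differ between cells given the inhibitor of miR-204-5p and the controls. Among the 33 genes, SQSTM1 had the largest difference, 2.11-fold higher in the inhibitor arrays, followed by GABARAPL1 at 1.90-fold, WIPI1 at 1.47-fold and ATG14 at 1.31-fold. These 4 belong to different steps: cargo capture, the ATG8 family, the reading of the lipid mark and the lipid kinase complex. The other 29 lay between -0.32 and 0.26 log2 units. Of the 33, 0 passed an adjusted p of 0.05 in limma, against 0.0513% of all features (11 of 21448, all higher). At an unadjusted p under 0.05, 4 of 33 (12.1%) were higher, against 5.11% of all features, a description only since results were known when the list was made. At the same threshold 0 of 33 were lower, against 12.8% of all features. The median difference of the 33 was 0.00, with 16 higher, 16 lower and 1 at 0. Over all features 8613 were higher and 12689 lower.

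**Figure D1:**
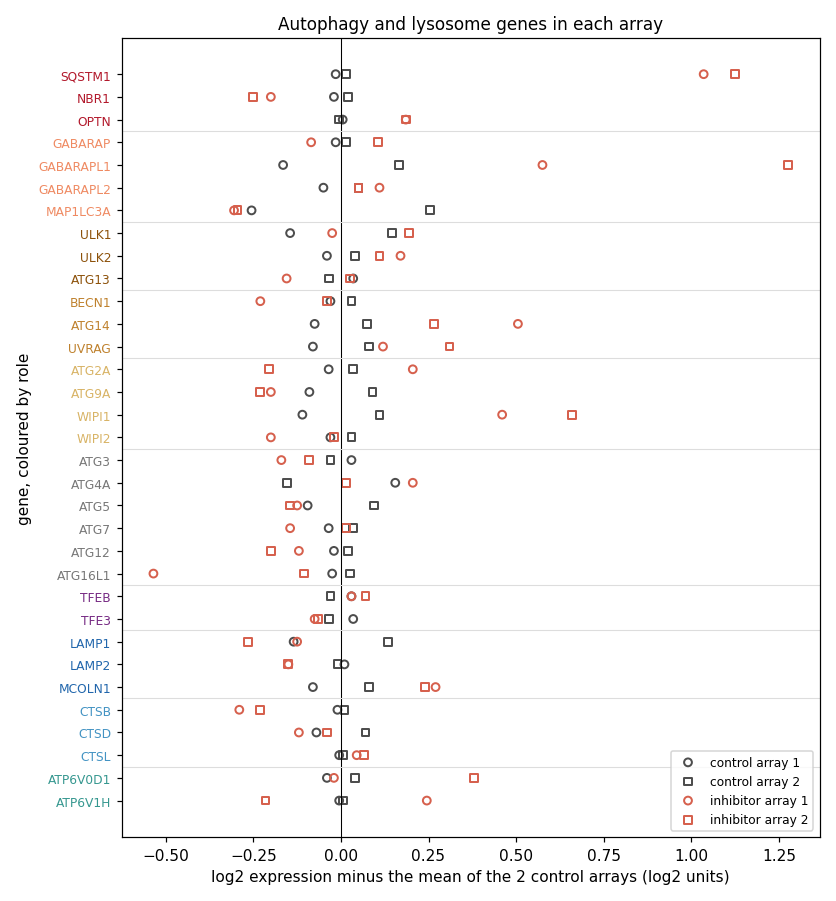
Each row is 1 gene, with the log2 value of each array minus the mean of the 2 control arrays on the x axis, circles for array 1 and squares for array 2 of each group, controls in grey and inhibitor arrays in red. SQSTM1, GABARAPL1 and WIPI1 have both inhibitor arrays well to the right of both controls, and most other genes have all 4 arrays close to 0.

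By class, the median difference was 0.185 log2 units for the 3 cargo receptors, -0.03 for the 20 genes of the core machinery and -0.03 for the 8 lysosomal genes. The mean over the cargo receptors was 8.43 and 8.45 in the controls, then 8.78 and 8.79 with the inhibitor. The mean over the core machinery was 7.295 and 7.40 in the controls, then 7.35 and 7.43 with the inhibitor, and that over the lysosomal genes was 8.76 and 8.84, then 8.78 and 8.77. Of these means only that of the receptors did not overlap between groups. The median level over the receptors went the other way, at 8.07 and 8.11 in the controls, then 7.89 and 7.84 with the inhibitor. That median was the level of NBR1 in each array, and the higher mean came with SQSTM1. Median levels over the core machinery were 7.16 and 7.35, then 7.36 and 7.56, and those over the lysosomal genes were 8.57 and 8.775, then 8.55 and 8.52, so mean and median gave different pictures of all 3 classes. In these bulk samples fewer expressing cells and less RNA per cell cannot be told apart.

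SQSTM1 encodes p62, the receptor that carries ubiquitinated proteins into autophagosomes and also binds KEAP1, the inhibitor of the oxidative stress factor NRF2. It was at 9.91 and 9.94 in the control arrays and at 10.96 and 11.05 in the inhibitor arrays. Both inhibitor arrays were higher by more than 1 log2 unit, and the groups did not overlap. The difference was 1.08 log2 units (SE 0.141, 95% interval 0.745 to 1.42), and the adjusted p in limma was 0.101. The adjusted p was under the threshold in 4 of 11 settings that used all 4 arrays. It was 2.41e-05 when the prior variance of limma followed intensity and 7.83e-06 when the values were also quantile-normalized again. It was 0.0473 without features in the dimmest 25%, and 0.00747 without those below the median level. Over all 11 settings it ran from 7.83e-06 to 0.322.

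NBR1, a receptor that works beside p62, was at 8.07 and 8.11 in the control arrays and at 7.89 and 7.84 in the inhibitor arrays. It was lower in both, by 0.225 log2 units (SE 0.14, adjusted p = 0.434). OPTN, optineurin, a receptor for damaged mitochondria and bacteria, was at 7.30 and 7.29 in the control arrays and at 7.48 in both inhibitor arrays. It was higher by 0.185 log2 units (SE 0.138, adjusted p = 0.514). Arrays within a group were close for both genes, so the groups did not overlap, but the differences were a small fraction of that of SQSTM1 and did not pass.

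GABARAPL1, an ATG8 protein that is conjugated to the autophagosome membrane, was at 6.37 and 6.70 in the control arrays and at 7.11 and 7.81 in the inhibitor arrays. Both inhibitor arrays were higher, but they differed from each other by more than the controls did. The difference was 0.925 log2 units (SE 0.252, 95% interval 0.326 to 1.52, adjusted p = 0.179). Without inhibitor array 2 it was 0.575, and without inhibitor array 1 it was 1.275. GABARAPL1 has a close copy, GABARAPL3, which the probes may not separate, so its value is uncertain. The adjusted p of GABARAPL1 was 0.0178 with the intensity trend and 0.496 in the unmoderated test. It was under the threshold in 3 of 11 settings with all 4 arrays.

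The other 3 ATG8 genes did not pass either threshold. GABARAP, whose protein acts late in autophagosome maturation, differed by 0.01 log2 units (SE 0.148) and GABARAPL2 by 0.08 (SE 0.142), with overlapping groups in both. MAP1LC3A, an LC3 protein, differed by -0.30 (SE 0.196, adjusted p = 0.455), and its controls were far apart at 4.51 and 5.02 against 4.46 and 4.47 with the inhibitor. Without control array 1 its difference was -0.555, lower at an unadjusted p under 0.05, and without control array 2 it was -0.045. No test compared GABARAPL1 with the rest of its family.

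In the ULK1 complex, which starts autophagosome formation, the kinases ULK1 and ULK2 differed by 0.085 (SE 0.17) and 0.14 log2 units (SE 0.141). Their regulatory partner ATG13 differed by -0.065 (SE 0.148). The 95% intervals of all 3 covered 0.

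In the lipid kinase complex, ATG14, the subunit that directs the complex to autophagosome formation, was at 6.67 and 6.82 in the control arrays and at 7.25 and 7.01 in the inhibitor arrays. The inhibitor arrays lay above both controls, by 0.385 log2 units on average (SE 0.158, 95% interval 0.00810 to 0.762, adjusted p = 0.273). Without inhibitor array 1 the difference was 0.265. ATG14 passed the adjusted threshold in 0 of 11 settings with all 4 arrays. UVRAG, the subunit of the alternative complex of the endosomal route, differed by 0.215 (SE 0.154). BECN1, the Beclin 1 subunit common to both complexes, differed by -0.135 (SE 0.149), and neither passed.

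WIPI1 and WIPI2 bind the lipid that this kinase makes, and WIPI2 recruits the conjugation enzymes. WIPI1 was at 7.17 and 7.39 in the control arrays and at 7.74 and 7.94 in the inhibitor arrays. The groups did not overlap, and the inhibitor arrays were higher by 0.56 log2 units (SE 0.16, 95% interval 0.179 to 0.942, adjusted p = 0.186). Its adjusted p was 0.027 with the intensity trend, 0.0457 without features below the median level and 0.413 in the unmoderated test. It was under the threshold in 3 of 11 settings with all 4 arrays. WIPI2 differed by -0.11 (SE 0.148), with overlapping groups. ATG9A, a scramblase of the vesicles that seed the membrane, differed by -0.215 (SE 0.147). ATG2A, a lipid transfer protein, differed by 0.00 (SE 0.179), because its inhibitor arrays lay at 7.99 and 7.58 on either side of the controls at 7.75 and 7.82.

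Conjugation enzymes had no difference past either threshold. Of the 6, 5 had lower and 1 had higher values in the inhibitor arrays, with a median of -0.13 log2 units. Over all features 12689 of 21448 were lower. The groups did not overlap for 4 of the 6 (66.7%), all lower, against 33.8% of all features. ATG16L1, which positions the conjugation of ATG8 proteins at the membrane, was at 6.40 and 6.45 in the control arrays and at 5.89 and 6.32 in the inhibitor arrays. Its difference of -0.32 (SE 0.182, adjusted p = 0.397) was the lowest of the 33 and came mainly from inhibitor array 1. The others were ATG12 (-0.16), ATG5 (-0.135), the transfer enzyme ATG3 (-0.13), the activating enzyme ATG7 (-0.065) and the protease ATG4A (0.11). After quantile normalization ATG3, ATG7 and ATG12 were above 0, so the direction of this group depends on the scaling.

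**Figure D2:**
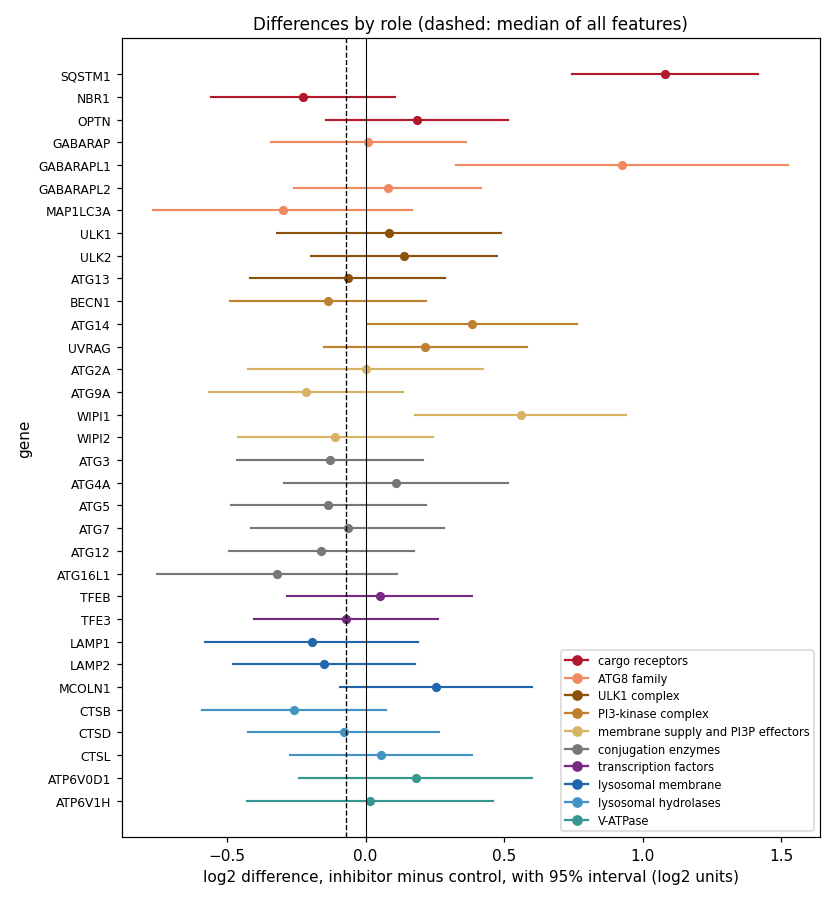
Points are log2 differences, inhibitor minus control, and lines are 95% intervals from limma, coloured by role, with the median of all features (-0.07) as a dashed line. The intervals of SQSTM1, GABARAPL1, WIPI1 and ATG14 lie above 0 and those of the other 29 genes cover it.

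TFEB, the best known driver of lysosomal genes, was at 3.45 and 3.39 in the control arrays and at 3.45 and 3.49 in the inhibitor arrays. These lie in the dimmest 25% of features (mean level up to 3.965), so the difference of 0.05 log2 units (SE 0.14) cannot be read as a level of the transcript. TFE3, a relative of TFEB, was at 7.92 and 7.85 in the control arrays and at 7.81 and 7.82 in the inhibitor arrays, a difference of -0.07 (SE 0.14, adjusted p = 0.821). Messenger RNA levels do not report the nuclear entry by which both factors are known to be controlled.

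Lysosomal genes showed 0 of 8 past an unadjusted p of 0.05, against 17.9% of all features, with 4 higher and 4 lower. LAMP1, the abundant membrane glycoprotein, was at 8.33 and 8.60 in the control arrays and at 8.34 and 8.2 in the inhibitor arrays. The groups overlapped, and the difference was -0.195 log2 units (SE 0.161, 95% interval -0.579 to 0.189). LAMP2, which also serves chaperone-mediated autophagy, differed by -0.15 (SE 0.139). MCOLN1, a calcium channel of the lysosomal membrane, was at 7.84 and 8.0 in the control arrays and at 8.19 and 8.16 in the inhibitor arrays, the highest difference of the class at 0.255 (SE 0.145, adjusted p = 0.399).

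CTSD, the aspartyl protease cathepsin D, was at 8.81 and 8.95 in the control arrays and at 8.76 and 8.84 in the inhibitor arrays. The groups overlapped, and the difference was -0.08 log2 units (SE 0.145, 95% interval -0.426 to 0.266). The cysteine protease CTSB was at 10.70 and 10.72 in the control arrays and at 10.42 and 10.48 in the inhibitor arrays. The inhibitor arrays were both lower, by 0.26 log2 units (SE 0.14, adjusted p = 0.374). CTSL, a further cysteine protease, differed by 0.055 (SE 0.139). For the proton pump of the lysosome, ATP6V0D1 differed by 0.18 (SE 0.177) and ATP6V1H by 0.015 (SE 0.187). Inhibitor arrays disagreed for both: 9.60 and 10.00 for ATP6V0D1, and 7.31 and 6.85 for ATP6V1H.

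The values of the 2 groups did not overlap for 20 of the 33 genes, of which 9 (27.3%) were higher and 11 (33.3%) lower in the inhibitor arrays. Over all features the shares were 16.5% higher and 33.8% lower. The share of lower genes was thus near the background.

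The direction of small differences depended on how the arrays were scaled. After quantile normalization of the deposited values the 33 genes had a median of 0.133 log2 units, with 26 higher and 7 lower, while the median of all features was -0.004. At an unadjusted p under 0.05, 8 of the 33 were then higher, against 6.57% of all features, and 0 were lower, against 7.10%. The 8 comprised SQSTM1, GABARAPL1, WIPI1 and ATG14 together with OPTN, UVRAG, MCOLN1 and ATP6V0D1, and cyclic loess gave the same 8 (against 6.97% of all features higher and 6.93% lower). Of the 33, 30 lay above the median level of all features. Over features above that level the median of all was -0.165 and that of those 30 genes -0.033 on the deposited scale. With the intensity trend 3 of the 33 rose past an adjusted p of 0.05, SQSTM1, GABARAPL1 and WIPI1, against 1.02% of all features, and 0 fell, against 6.09%. The same 3 rose with quantile normalization and trend together (1.42% of all features higher, 1.19% lower) and over features above the median level (1.34% higher, 8.07% lower). SQSTM1 alone rose once the dimmest 25% were left out (0.174% higher, 0.0622% lower).

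**Figure D3:**
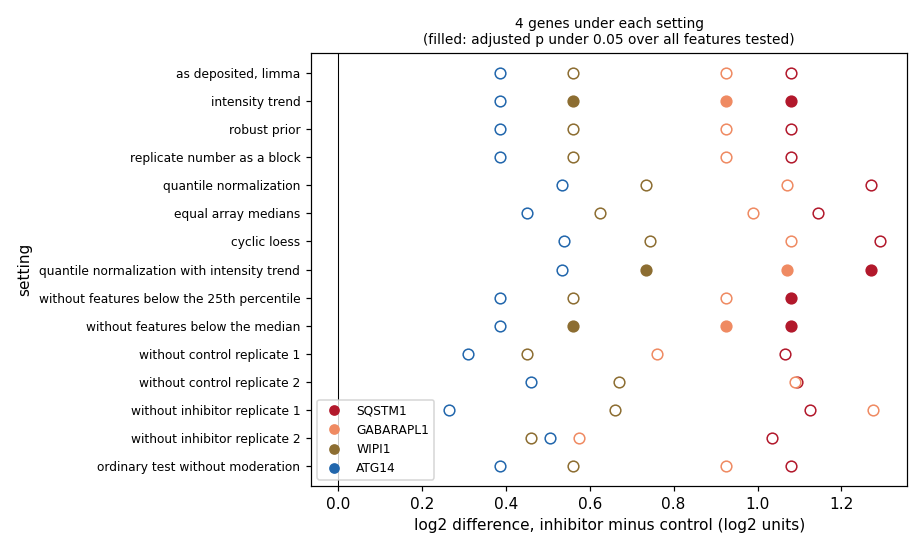
Log2 differences (x axis) of SQSTM1, GABARAPL1, WIPI1 and ATG14 under each setting (rows), filled where the adjusted p over all features tested was under 0.05. Only quantile normalization, cyclic loess and equal array medians could have changed a sign here, since the groups of these genes did not overlap. All 4 genes stay above 0 in every setting, SQSTM1 between 1.035 and 1.293, and no circle is filled when 1 array is left out.

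The CLEAR core was looked for in the windows from 250 bases before to 50 after each annotated start, which were present for 29 of the 34 genes (37 windows). CACGTG, which reads the same on both strands, was found for 7 of the 29 genes (24.1%), against 8.77% of all 27305 genes with a window. They were ATG14, ATG3, LAMP1, MCOLN1, CTSD, ATP6V0D1 and NEU1, which had no expression value. TCACGTGA contains CACGTG and also reads the same on both strands. It was found for 4 of the 29 genes (13.8%), ATG3, LAMP1, MCOLN1 and ATP6V0D1, against 1.18% of all genes. Beside the single match drawn in the stretch above, the LAMP1 window holds a second TCACGTGA across its start and 4 more CACGTG further upstream. The genes with TCACGTGA had differences of -0.13, -0.195, 0.255 and 0.18 log2 units in that order. Of these 4 genes, 0 passed an unadjusted p of 0.05, against 17.9% of all features. SQSTM1, GABARAPL1 and WIPI1 had no CACGTG in their windows, and ATG14 had 1.

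Other response elements were looked for on both strands in the same windows. TGACNNNGC, the core of the antioxidant response element, was found for LAMP1, CTSD, CTSL and ATP6V0D1 (13.8% of the 29 genes, against 16.1% of all genes). TGATGNAA, the core of the C/EBP-ATF response element of amino acid stress, was found for 0 of the 29, against 4.46% of all genes. TGACGTCA, looked for after the sequences had been read, was found for GABARAPL1 alone among the 29, against 2.25% of all genes. A match says only that these letters are present, and matches outside the windows were not searched.

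The wider pathway was covered by 8 lists of 153 further genes, of which 139 were measured. At an unadjusted p under 0.05, 7 of 139 (5.04%) were higher and 11 (7.91%) lower, and 0 passed the adjusted threshold in limma. The backgrounds were 5.11% and 12.8%, so neither share was above the background on the deposited scale. This changed with the scaling: after quantile normalization 20 (14.4%) were higher and 5 (3.60%) lower, against 6.57% and 7.10% of all features. After cyclic loess 21 (15.1%) were higher and 5 (3.60%) lower, against 6.97% and 6.93%.

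Among other ATG8 and conjugation genes, MAP1LC3B, the LC3 protein most used as a marker of autophagosomes and a reported miR-204 target, was at 8.69 and 8.51 in the control arrays and at 8.93 and 9.10 in the inhibitor arrays. Here too the groups did not overlap, with a difference of 0.415 log2 units (SE 0.154, adjusted p = 0.239). MAP1LC3B2, a close copy that the probes may not separate, differed by 0.275. ATG4C, a protease that processes ATG8 proteins, was lower by 0.41 log2 units (SE 0.142). Of the 8 measured genes of this list, 1 (12.5%) was higher and 1 (12.5%) lower at an unadjusted p under 0.05. The shares over all features were 5.11% and 12.8%.

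Of 11 measured initiation and nucleation genes, 1 (9.09%) was higher and 2 (18.2%) lower at that threshold, against 5.11% and 12.8% of all features. They were the kinase ULK3 (0.365, SE 0.142), the lipid kinase subunit PIK3R4 (-0.36, SE 0.147) and the lipid transfer gene ATG2B (-0.685, SE 0.151). ATG2B had the largest difference of the 139 genes, at 5.12 and 5.34 in the control arrays and 4.53 and 4.56 in the inhibitor arrays. Among 11 further cargo receptors 1 (9.09%) was higher, BNIP3L, a receptor for mitochondria (0.40, SE 0.139). Among 13 fusion genes 2 (15.4%) were lower, the tether subunit VPS39 (-0.50, SE 0.143) and the membrane fusion protein SNAP29 (-0.37, SE 0.149).

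Further lysosomal hydrolases and activators had lower values for 25 of 33, against 12689 of 21448 features. Their median was -0.125 log2 units, which became 0.011 after quantile normalization. At an unadjusted p under 0.05, 2 (6.06%) were lower, against 12.8% of all features. They were the protease CTSC (-0.44, SE 0.147) and the sphingomyelinase SMPD1 (-0.455, SE 0.174). Lysosomal membrane genes had a median of 0.25, with 10 of 16 higher, against 8613 of 21448 features. That median moved with single arrays: it was 0.09 without control array 1, 0.127 without inhibitor array 1 and 0.005 without inhibitor array 2. Without control array 2 it was 0.247. It was 0.303 after quantile normalization and 0.314 after cyclic loess. As deposited 2 (12.5%) were higher and 1 (6.25%) lower at an unadjusted p under 0.05, against 5.11% and 12.8% of all features. After quantile normalization 5 of the 16 were higher and 0 lower, against 6.57% and 7.10% of all features. Of those 16, NPC1, which exports cholesterol from the lysosome, was higher by 0.465 (SE 0.141, adjusted p = 0.197), from 8.52 and 8.59 in the control arrays to 8.98 and 9.06 in the inhibitor arrays. The channel TPCN1 was higher by 0.365 (SE 0.146) and its relative TPCN2 lower by 0.425 (SE 0.162). Of 18 proton pump genes 1 (5.56%) was lower, ATP6V1E1 (-0.38, SE 0.147).

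The control of the pathway through mTORC1, AMPK and the TFEB family was covered by 29 genes. At an unadjusted p under 0.05, 2 (6.9%) were higher and 2 (6.9%) lower, against 5.11% and 12.8% of all features. SESN2, a stress-induced sestrin that restrains mTORC1, was at 6.56 and 6.66 in the control arrays and at 7.05 and 7.09 in the inhibitor arrays, a difference of 0.46 log2 units (SE 0.142, adjusted p = 0.20). FNIP1, a partner of the TFEB regulator folliculin, was higher by 0.38 (SE 0.152). The mTORC1 subunit MLST8 was lower by 0.535 (SE 0.144) and the AMPK subunit PRKAA2 by 0.475 (SE 0.161).

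**Figure D4:**
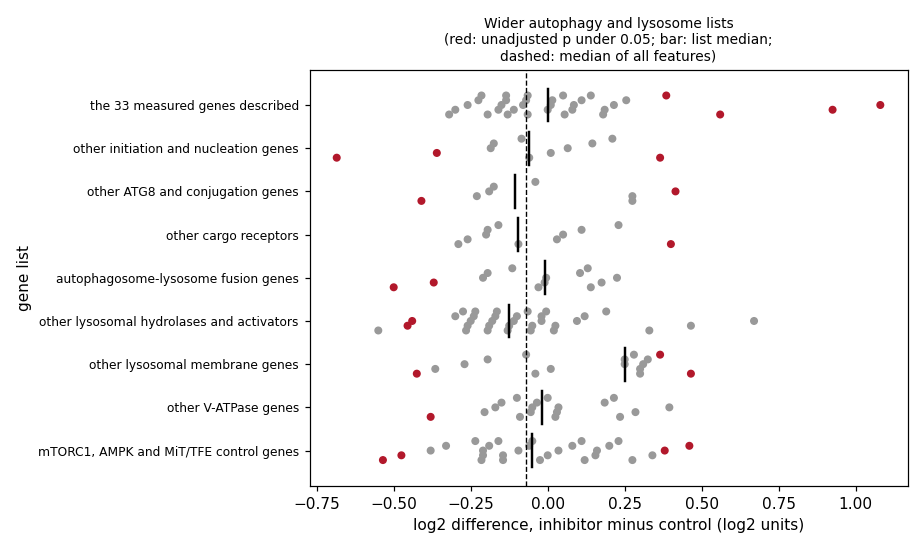
Each point is the log2 difference, inhibitor minus control, of 1 gene in the 33 genes described and in each of the 8 wider lists, red at an unadjusted p under 0.05, with list medians as bars and the median of all features (-0.07) dashed. SQSTM1 and GABARAPL1 lie beyond every gene of the wider lists, and the list medians lie between -0.125 and 0.25, the latter for the lysosomal membrane list, whose median was 0.005 without inhibitor array 2.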

How the data were processed

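Per the submitters' processing notes, the deposited log2 values came from RMA (background correction, quantile normalization and probe summary) and Transcriptome Analysis Console 4.0. Parameters and genome build are not given in the sources used here. The platform annotation gave 17709 features 1 symbol and left 3739 unnamed. Each of the 33 genes had 1 feature, so taking the brightest feature per symbol chose nothing. The test of 2 against 2 arrays used limma 3.58.1 (R 4.3.3) (lmFit and eBayes, no block, 2 residual and 4.78 prior degrees of freedom), with Benjamini-Hochberg adjustment over all features and a threshold of 0.05. The procedure was tested on simulated data in which spread did not depend on level, so that test does not cover such dependence. An exact permutation of 2 against 2 arrays cannot give a p below 0.333. The number of arrays limits the precision.

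The genes and lists were chosen with earlier results of these data known. Genes given with the value in every array were those with an unadjusted p under 0.05, all cargo receptors, TFEB, TFE3, GABARAPL1, LAMP1 and CTSD. Others were shown so where arrays of a group disagreed or a difference was the highest or lowest of its class, chosen after their values were seen. From the wider lists up to 2 genes in each direction with an unadjusted p under 0.05 were named, with MAP1LC3B and SESN2. Settings tried were an intensity trend, a robust prior, quantile normalization (also with the trend), cyclic loess, equal array medians, filters on dim features, a replicate block, each array left out and an unmoderated test.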

Additional observations from a re-analysis of the deposited data

How the results depend on the processing

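All 14 other settings kept SQSTM1, GABARAPL1, WIPI1 and ATG14 higher in the inhibitor arrays, but most could not have done otherwise. The intensity trend alone, robust prior, replicate block, filters and unmoderated test leave a log2 difference as it is. Leaving out 1 array cannot reverse it for these genes, whose groups did not overlap. Only quantile normalization, cyclic loess and equal array medians could have changed the sign. The count of the 33 genes past an adjusted p of 0.05 was 0 as deposited, 3 with an intensity trend, with or without quantile normalization, 1 without features below the 25th percentile and 3 without those below the median. It was 0 in each fit without 1 array, where fewer degrees of freedom are left. Over all features the count of 11 became 1525 with the trend, 559 with quantile normalization and trend, 38 and 1011 with those filters, 4 without moderation, 0 after quantile normalization and 0 without any 1 array. The count of the 33 genes higher at an unadjusted p under 0.05 was 4, and 8 after quantile normalization or cyclic loess. It was 10 with quantile normalization and trend, and 3 without moderation (SQSTM1, OPTN and CTSL). GABARAPL1, WIPI1 and ATG14 were thus not under 0.05 in the unmoderated test. The count of lower ones was 0, and 1 with the trend (CTSB) and 3 without moderation (NBR1, LAMP2 and CTSB). Medians of cargo receptors, core machinery and lysosomal genes were 0.355, 0.135 and 0.148 after quantile normalization, with or without trend, and 0.36, 0.138 and 0.154 after cyclic loess. With equal array medians that of the receptors was 0.25. Without 1 array the receptor median ran from 0.18 to 0.19, that of the core machinery from -0.103 to 0.015 and that of the lysosomal genes from -0.095 to 0.005.

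With the replicate number as a block, the features past the adjusted threshold fell from 11 to 0, and the 33 genes stayed at 0, with 3 higher at an unadjusted p under 0.05. Deviations of same-numbered arrays from their group means correlated at 0.00579 over all features, so the numbers were not taken as a pairing.

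Log2 differences changed sign, none of them past the threshold in limma, after quantile normalization, with or without trend, for ATG13 0.133, BECN1 0.073, WIPI2 0.1, ATG3 0.078, ATG7 0.111, ATG12 0.007, TFEB -0.026, TFE3 0.121, LAMP1 0.009, LAMP2 0.042 and CTSD 0.126. After cyclic loess they did so for ATG13 0.142, BECN1 0.078, WIPI2 0.104, ATG3 0.082, ATG5 0.001, ATG7 0.121, ATG12 0.016, TFEB -0.001, TFE3 0.124, LAMP1 0.012, LAMP2 0.054 and CTSD 0.132. ATG2A, at 0.00 with all 4 arrays as deposited, ran from -0.205 to 0.205 in the fits without 1 array. In those fits the differences of these genes also spanned 0: GABARAP -0.085 to 0.105, ULK1 -0.06 to 0.23, ATG13 -0.155 to 0.025, ATG4A -0.045 to 0.265, ATG7 -0.145 to 0.015, ATP6V0D1 -0.02 to 0.38 and ATP6V1H -0.215 to 0.245. Averaging the features of a symbol was not run because each gene had 1. For the wider lists, settings added after seeing the data gave 0 to 28 higher and 2 to 22 lower genes at an unadjusted p under 0.05.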

Other observations

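For the 33 genes the spread between arrays of a group was small in both groups. The SD within the controls had a median of 0.0495 log2 units and ran up to 0.361, for MAP1LC3A. Within the inhibitor arrays it had a median of 0.0636 and ran up to 0.495, for GABARAPL1. The SD was larger in the inhibitor arrays for 18 genes and in the controls for 15.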
